A study of Mus musculus with 6 samples.

Results

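The genes described here are the 6 actins and the 4 alpha-actinins of the mouse: *Acta1*, *Actc1*, *Acta2*, *Actg2*, *Actb*, *Actg1*, *Actn1*, *Actn2*, *Actn3* and *Actn4*. Their rows were picked by gene symbol, and all 10 were found among the 20654 genes of the count table. The libraries were made from muscle satellite cells (MuSCs), the stem cells of skeletal muscle, of mice on a C57BL/6 background. There were 3 libraries labelled wild type, called control below, and 3 labelled *Piezo1* cKO. The cKO mice carried floxed *Piezo1* alleles together with *Pax7* CreERT2/+, a tamoxifen-inducible Cre recombinase driven from the *Pax7* locus and so active in MuSCs. Deletion was induced in the cKO mice by tamoxifen, injected intraperitoneally before the cells were isolated. The labels give the controls as wild type, while the study's own description of the comparison names *Pax7* CreERT2/+ cells. In culture, 4-hydroxytamoxifen (1 µM) was also added to the medium of both groups. The cells were sorted as VCAM1+, CD31-, CD45- and Sca1- and were cultured for 3 days in growth medium on Matrigel. PIEZO1 is a cation channel opened by membrane tension, and the comparison asks which transcripts differed in MuSCs after its deletion. The age of the mice is not given in the labels.

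Actins are the subunits of actin filaments. The cytoplasmic isoforms *Actb* and *Actg1* form the stress fibres, cortex and contractile ring of all cells, the sarcomeric isoforms *Acta1* and *Actc1* form the thin filaments of striated muscle, and *Acta2* and *Actg2* are the smooth muscle isoforms. Alpha-actinins are rod-shaped dimers that cross-link actin filaments: *Actn1* and *Actn4* do so in stress fibres and adhesions, and *Actn2* and *Actn3* do so at the Z-disc, the border of the sarcomere. When myoblasts differentiate they lower the cytoplasmic isoforms and switch on *Actc1* and *Acta1*, and proliferating myoblasts are known to express *Acta2* as well. Many actin genes are controlled by serum response factor (SRF), which binds the CArG box in their promoters and whose MRTF cofactors are held back by free actin subunits.

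The coding sequences of the actins are related but not the same, with 81.5% to 88.7% identity in pairs. The stretches below are shown because the start of the coding sequence encodes the N-terminus, where actin isoforms are known to differ most. They are the first 30 coding bases in the GENCODE M21 annotation (GRCm38), read 5′ to 3′ on the minus strand, with capitals at the 10 positions at which the 3 muscle actins below were not all alike. *Acta1* lies at chr8:123893668-123893697, *Actc1* at chr2:114052002-114052031 and *Acta2* at chr19:34252524-34252553, each stretch within 1 coding exon.
Acta1: atgtgCgaCgaAgaCgaGaCcacCgcTCtT
Actc1: atgtgTgaCgaCgaGgaGaCcacCgcTTtG
Acta2: atgtgTgaAgaGgaAgaCaGcacAgcCCtG

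The same stretch of the cytoplasmic actins is given with capitals at the 8 positions at which *Actb* (chr5:142905657-142905686) and *Actg1* (chr11:120348062-120348091) differed.
Actb: atggaTgaCgaTatcgcTgcGctGgtcGtC
Actg1: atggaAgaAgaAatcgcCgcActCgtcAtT

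Over the whole coding sequence, *Actb* and *Actg1* were 88.7% identical, *Acta1* and *Actc1* 86.2%, and *Acta1* and *Acta2* 85.4%. Among the alpha-actinins the identity ran from 72.2% (*Actn3* and *Actn4*) to 77.0% (*Actn1* and *Actn4*). The libraries were primed from the poly(A) tail, so that counts come mainly from the 3′ end of a transcript. In the last 500 bases of the transcript used for each of the 10 genes, 0% of the 100-base stretches also occurred in an annotated transcript of another gene. Within the coding sequence, 91.9% of those of *Actg1* also occurred in 6 other annotated genes, 5 of which had a row in the table and at most 10 counts in any library. For *Actb* the share was 1.95%, and for the other 8 genes it was 0%.

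The count table held unique molecular identifier (UMI) counts per gene, which are counts of captured transcript ends. The control libraries held 740936, 931168 and 891531 counts and the cKO libraries 810096, 726378 and 769295. Levels are given as CPM, counts scaled to a common library size with TMM factors, on which scale 3 counts in a library, taken as the floor of detection, came to between 3.26 and 4.20 CPM. Before any of these genes, the deleted gene was looked at. *Piezo1* had 11, 5 and 6 counts in the control libraries against 7, 12 and 9 in the cKO libraries, so its level over the whole gene was not lower in the cKO libraries. These counts cannot tell a transcript without the floxed exons from an intact one, and every direction below rests on the labels of the libraries.

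Markers of the sorted cell type were present in all libraries. All 8 myogenic markers listed were detected, with summed levels of 2686, 2288 and 2583 CPM in the control and 2722, 2355 and 2556 CPM in the cKO libraries. The most abundant was *Myod1*, a myogenic transcription factor, with 1421 CPM in the control and 1276 CPM in the cKO group (means, n = 3 each). Other members, named after their values were seen, had log2 fold changes of opposite sign within this sum. *Vcam1*, the surface protein used in the sort, had 136 CPM in the control and 99.7 CPM in the cKO group (log2 fold change -0.45, edgeR adjusted p = 0.185), and *Pax7*, the satellite cell transcription factor, had a log2 fold change of -0.64 (adjusted p = 0.482). *Cdh15*, M-cadherin, had 0.53 (adjusted p = 0.118), and none of the 8 was called. Endothelial markers (5 of 6 analysed) summed to at most 19.4 CPM in any library, with *Tek* the most abundant. Leukocyte markers (3 of 6 analysed) summed to at most 27.2 CPM and were led by *Cd68*. Fibro-adipogenic markers (4 of 6 analysed) summed to at most 15.5 CPM, with *Pi16* at 0 in every library. *Ly6a*, which encodes the Sca1 antigen used to exclude cells from the sort, was the most abundant of them, with 2, 2 and 3 counts in the control and 5, 8 and 9 counts in the cKO libraries. *Pdgfra*, the receptor that defines these cells (named after its values were seen), had 4, 3 and 8 counts in the control and 1, 1 and 3 counts in the cKO libraries.

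Both sarcomeric actins had higher values in every cKO library than in any control library, without passing the edgeR test, and the cytoplasmic actins did not. *Acta1*, the actin of adult skeletal muscle fibres (chr8:123891769-123894751, GRCm38, minus strand), had 64.4, 61.9 and 92.0 CPM in the control libraries and 164, 454 and 265 CPM in the cKO libraries. Every cKO library lay above every control library, and the cKO libraries differed more among themselves than the control libraries did. The group means were 72.8 ± 16.7 and 294 ± 147 CPM (SD, n = 3 each), a 4.04-fold difference. The log2 fold change was 2.01 with a standard error (SE) of 0.49 in edgeR's quasi-likelihood test, whose Benjamini-Hochberg adjusted p over all genes tested was 0.241. DESeq2 gave an adjusted p of 0.00485 for a log2 fold change of 2.00, and limma-voom gave 3.23e-04. The call also changed within edgeR, with an adjusted p of 7.09e-06 at the same log2 fold change without robust dispersions. In the edgeR fit *Acta1* was treated as a highly variable gene, with 4.44 degrees of freedom, residual and prior together, against 86.5 for *Actn3*. Its adjusted p was 2.23e-09 without cKO 1 and 0.00113 without cKO 2, both past the threshold of 0.05, and it missed the threshold when any 1 of the other 4 libraries was left out (0.310 to 0.616).

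*Actc1*, the cardiac actin that is also the main sarcomeric actin of embryonic muscle and of newly formed myotubes (chr2:114047282-114053548, minus strand), was close to absent from the controls. It had 6, 0 and 0 counts in the control libraries and 11, 96 and 21 counts in the cKO libraries. The groups did not overlap, and 96 of the counts came from cKO 2. The ratio of the pooled counts per total was 23.7, with a 95% interval from 10.6 to 65.8 that covers counting error only. The edgeR adjusted p was 0.427, and the 95% interval of the log2 fold change, from -0.10 to 8.93, included no change, whereas the adjusted p was 0.0026 in limma-voom and 7.63e-04 in edgeR without robust dispersions. The fitted log2 fold change was 4.41 (SE 1.69) with all libraries and 2.99 without cKO 2. Control 1 held all the control counts. Without it the remaining control libraries were at 0 counts, so the fitted value of 8.50 (SE 3.95) is not an exact fold. *Actc1* passed the filter on low counts only through the cKO libraries.

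**Figure D1:**
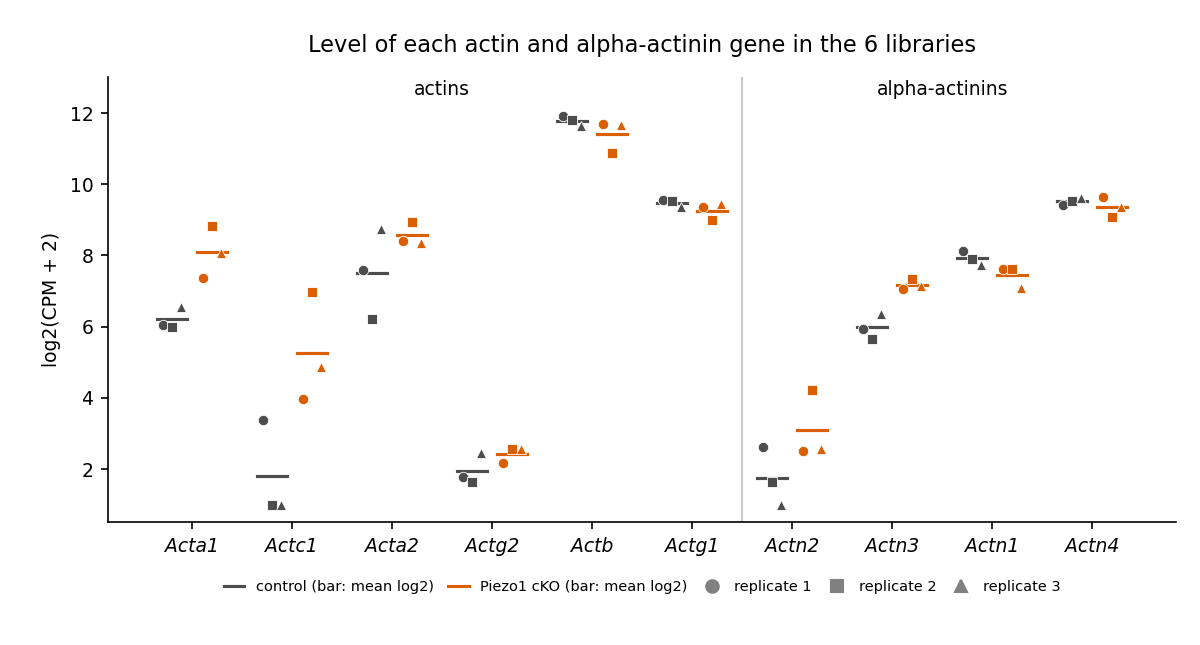
Level of each actin and alpha-actinin gene as log2(CPM + 2) (y axis), for the 3 control (grey) and 3 *Piezo1* cKO (orange) libraries, with a symbol for each replicate number and a bar at the mean of the log2 values. *Acta1*, *Actc1* and *Actn3* lie higher in every cKO library than in any control library, and *Actn1* lies lower in every cKO library on this TMM scale, though not with total counts as the only scaling.

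*Acta2*, the smooth muscle alpha-actin that myoblasts and myofibroblasts also make (chr19:34241090-34255590, minus strand), varied more within the control group than within the cKO group. It had 190, 71.7 and 423 CPM in the control libraries and 338, 486 and 324 CPM in the cKO libraries. The groups overlapped, since control 3 lay above cKO 1 and cKO 3. The means were 229 ± 179 and 383 ± 89.9 CPM, with a log2 fold change of 0.74 (SE 0.67) and an adjusted p of 0.759 in edgeR. The log2 fold change was 1.58 without control 3 and 0.31 without control 2, with adjusted p of 0.357 and 0.862. *Actg2*, the enteric smooth muscle actin (chr6:83512905-83536265, minus strand), had 1, 1 and 3 counts in the control and 2, 3 and 3 counts in the cKO libraries. No library exceeded the floor of 3 counts, and a difference could not be detected at this depth.

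Smooth muscle cells and pericytes were looked at through 8 of 9 listed markers, since they too express *Acta2*. Their summed level was 112, 124 and 126.5 CPM in the control and 154, 127.4 and 165 CPM in the cKO libraries, without overlap. *Smtn*, a protein of contractile smooth muscle, led the list, with group means of 76.1 and 73.0 CPM. *Myh11*, the myosin that defines smooth muscle cells, had 0 counts in 5 libraries and 1 count in cKO 2, the library with the highest *Acta2*. The other markers of the list, named after their values were seen, went both ways. *Cspg4*, the NG2 proteoglycan of pericytes, had 28, 25 and 25 counts in the control and 39, 32 and 54 counts in the cKO libraries, without overlap (log2 fold change 0.76, SE 0.25, edgeR adjusted p = 0.143). *Rgs5*, a pericyte marker, had 0, 0 and 1 against 2, 4 and 6 counts, and *Notch3*, a receptor of mural cells, had 3, 4 and 7 against 6, 12 and 11 counts, both below the filter. *Pdgfrb*, another pericyte receptor, had 3, 3 and 10 against 2, 7 and 3 counts, and *Lmod1* and *Abcc9* each had 1 count, in control 3. The part of these cells in the *Acta2* values was not tested.

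Both cytoplasmic actins were among the most abundant transcripts. *Actb* (chr5:142903115-142906754, minus strand) was the third most abundant gene of the table, with 3846, 3579 and 3200 CPM in the control libraries and 3307, 1872 and 3245 CPM in the cKO libraries. Only cKO 2 lay apart, below all the others, and the remaining cKO libraries lay within the control range. The log2 fold change was -0.33 (SE 0.18), with an edgeR adjusted p of 0.445, and it was -0.11 without cKO 2. *Actg1* (chr11:120345690-120348542, minus strand) had 748, 737 and 660 CPM in the control and 652, 504 and 692 CPM in the cKO libraries, again with the lowest value in cKO 2 and with groups that overlapped. Its log2 fold change was -0.21 (SE 0.14, adjusted p = 0.573), and -0.09 without cKO 2. The 95% intervals of the log2 fold changes ran from -0.69 to 0.02 for *Actb* and from -0.49 to 0.06 for *Actg1*. The ratio of *Actb* to *Actg1* counts was 5.14, 4.86 and 4.85 in control cells, and in cKO cells it was 5.07, 3.71 and 4.69, lowest in cKO 2.

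The Z-disc alpha-actinin *Actn3*, the isoform of fast glycolytic fibres (chr19:4861216-4877909, minus strand), was the member that passed the test. It had 58.8, 47.8 and 80.5 CPM in the control libraries and 131, 161 and 138 CPM in the cKO libraries. The groups did not overlap, and the cKO libraries were as close to one another as the controls were. The means were 62.4 ± 16.6 and 143 ± 15.6 CPM (SD, n = 3 each), and the fitted difference was 2.29-fold, with a log2 fold change of 1.20 (SE 0.18, 95% interval 0.85 to 1.55). The adjusted p was 1.03e-05 in edgeR and 8.24e-04 in DESeq2. It stayed under 0.05 in each of 15 alternatives, including without cKO 2, where the log2 fold change was 1.11 (adjusted p = 0.0116). *Actn2*, the Z-disc isoform of cardiac and all skeletal fibres (chr13:12269426-12340760, minus strand), had 3, 1 and 0 counts in the control and 3, 13 and 3 counts in the cKO libraries. It exceeded the floor in cKO 2 alone, so that its pooled ratio of 5.28 (95% interval 1.76 to 21.3, counting error only) rests on that library.

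Neither non-muscle alpha-actinin passed the test. *Actn1*, found in stress fibres and focal adhesions (chr12:80167547-80260371, minus strand), had 276, 236 and 211 CPM in the control libraries and 195, 193 and 134 CPM in the cKO libraries. Every cKO library lay below every control library on this scale, whereas with total counts as the only scaling cKO 2 (207 CPM) lay just above control 3 (205 CPM). Its log2 fold change was -0.46 (SE 0.15), with an edgeR adjusted p of 0.122 that fell to 0.0439 without cKO 1 and rose to 0.603 without cKO 3. *Actn4*, the more abundant non-muscle isoform (chr7:28893248-28962340, minus strand), had 682, 736 and 788 CPM in the control and 793, 537 and 651 CPM in the cKO libraries, with overlapping groups. Its log2 fold change was -0.16 (SE 0.14, adjusted p = 0.717), and ran from -0.03 without cKO 2 to -0.30 without cKO 1.

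**Figure D2:**
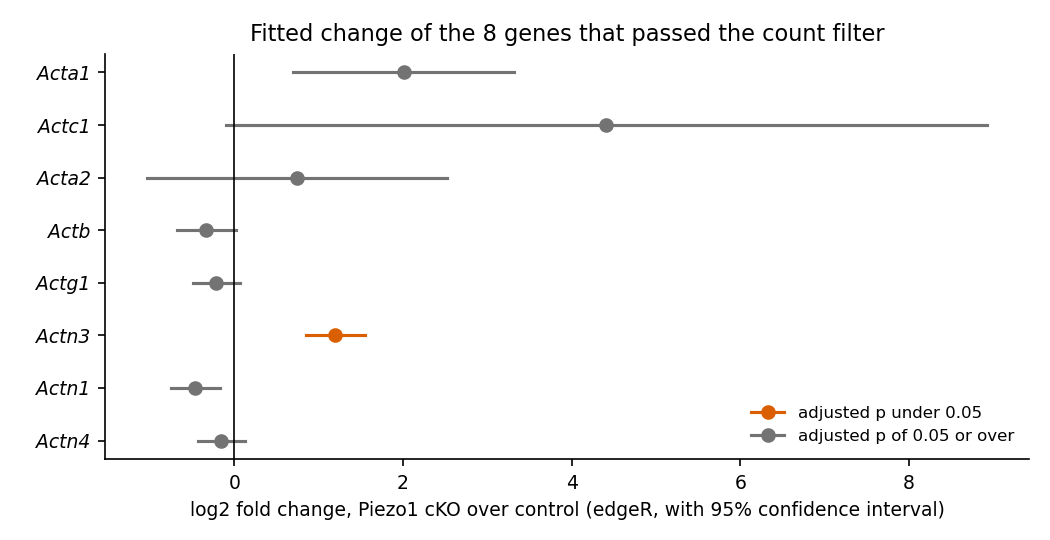
Log2 fold change of *Piezo1* cKO over control from edgeR (x axis) with its 95% confidence interval for the 8 genes that passed the count filter. *Actn3* (orange) has an adjusted p under 0.05, and the intervals of *Acta1* above 0 and of *Actn1* below 0 also leave out 0 before adjustment.

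Counted as a set, 8 of the 10 members passed the filter on low counts, *Actg2* and *Actn2* not. By edgeR, 1 of the 8 was called higher (*Actn3*) and none lower, where a gene is called at an adjusted p under 0.05. Of the 8551 genes tested, 0.468% were called higher and 0.316% lower. At an unadjusted p under 0.05 there were 3 members (*Acta1*, *Actn1* and *Actn3*), against 11.9% of all genes tested. By DESeq2, which gave an adjusted p to 4007 genes, 2 members were called higher (*Acta1* and *Actn3*) and none lower. Of the 4007 genes, 12 (0.299%) were called higher and 15 lower. The groups did not overlap for 3 members that were higher in cKO, against 8.2% of all genes tested, and for 1 that was lower (*Actn1*), against 8.31%. The median log2 fold change of the 8 was 0.29, with 4 positive and 4 negative, and that of all genes tested was 0.0023. *Actc1* was among the 8 through its cKO libraries alone, so these counts describe the members and were not used as a test.

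The sarcomeric share of the actin counts was larger in every cKO library than in any control library. *Acta1* and *Actc1* together made up 1.5%, 1.39% and 2.10% of the actin counts of the control libraries and 3.97%, 16.8% and 6.40% of those of the cKO libraries. The spread was wide among the cKO libraries, and the highest, in cKO 2, had an exact (Clopper-Pearson) 95% interval from 15.4% to 18.2% of its 2677 actin counts. This interval covers counting error only. The means were 1.66% ± 0.382 and 9.05% ± 6.80 (SD, n = 3 each). A two-sided exact permutation test gave p = 0.1, the smallest value that 3 libraries against 3 can give, and 0.283 after adjustment over the 17 comparisons of shares and sums. Without cKO 2 the difference of the means was 3.52 percentage points in place of 7.38. In these mixed samples more cells that express a sarcomeric actin and more transcript per cell cannot be told apart.

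The other actin shares overlapped between the groups. *Acta2* and *Actg2* made up 3.95%, 1.64% and 9.75% of the actin counts in the control and 7.61%, 14.2% and 7.20% in the cKO libraries (exact permutation p = 0.3). *Actb* alone made up 79.2%, 80.4% and 73.1% in the control and 73.9%, 54.4% and 71.2% in the cKO libraries (exact permutation p = 0.2). The share of *Actg1* was 15.7% ± 0.779 in the control and 14.8% ± 0.338 in the cKO group (SD, n = 3 each). The summed actin level was 4563 ± 258 CPM in the control and 4160 ± 621 CPM in the cKO group (exact permutation p = 0.6), with 3445 CPM in cKO 2 and at least 4379 CPM in the other 5 libraries. The difference of -403 CPM was -45.3 CPM without cKO 2 and -199.9 CPM with total counts as the only scaling.

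The sarcomeric share of the alpha-actinin counts was also larger in every cKO library, with a narrower spread among the cKO libraries than the actin share had. *Actn2* and *Actn3* together made up 6.17%, 4.79% and 7.46% of the alpha-actinin counts in the control and 12.0%, 19.6% and 15.3% in the cKO libraries. The groups did not overlap, and the exact 95% interval of the lowest cKO library (9.95% to 14.3%) lay above that of the highest control library (5.86% to 9.33%). These intervals cover counting error only and leave out the spread between libraries. The means were 6.14% ± 1.34 and 15.6% ± 3.80 (SD, n = 3 each), with an exact permutation p of 0.1 and 0.283 after adjustment. Without cKO 2 the difference was 7.51 percentage points in place of 9.49. The share of *Actn3* alone differed by 8.79 percentage points, and that of *Actn2* overlapped between the groups. The sarcomeric share thus largely restates the *Actn3* values. The number of *Actn3* counts per *Actn1* count was 0.213, 0.203 and 0.383 in the control and 0.671, 0.833 and 1.03 in the cKO libraries. The summed alpha-actinin level was 1040 ± 33.7 CPM in the control and 986 ± 119 CPM in the cKO group (exact permutation p = 0.5). The difference of -54.6 CPM was -6.15 CPM with total counts as the only scaling, -15.4 CPM without cKO 2 and -123 CPM without cKO 1. Dividing the counts by coding length, which runs from 1125 to 1131 bases in the actins and from 2676 to 2796 bases in the alpha-actinins, left the differences of the muscle shares at 7.36 and 9.68 percentage points. Lengths so alike within a family could hardly change a share, so these values do not check it.

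**Figure D3:**
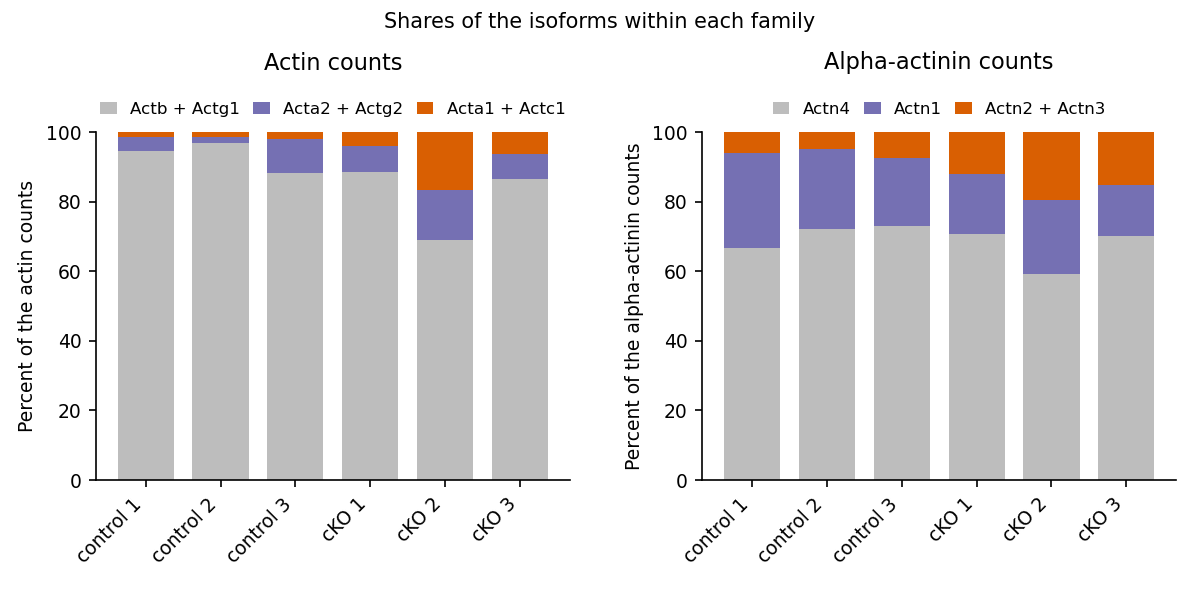
Stacked bars of the percent of actin counts (left) and of alpha-actinin counts (right) that each isoform group takes in each of the 6 libraries. The orange segments, *Acta1* with *Actc1* and *Actn2* with *Actn3*, are larger in every cKO library than in any control library and largest in cKO 2.

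The library cKO 2 stood at an extreme for many members, with the highest *Acta1*, *Actc1*, *Acta2*, *Actn2* and *Actn3* and the lowest *Actb*, *Actg1* and *Actn4*. The same library had the most counts of *Myog*, the transcription factor of differentiating myoblasts. *Myog* had 40, 3 and 45 counts in the control libraries and 63, 203 and 92 counts in the cKO libraries. Its groups did not overlap, and its edgeR adjusted p was 0.469. Across the 6 libraries the log2 level of *Myog* had a Pearson correlation of 0.805 with *Acta1* and of 0.860 with *Actn3*. These 6 points include the difference between the groups, and the part of differentiation in the actin values was not tested.

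The genes whose levels followed *Acta1* and *Actn3* most closely are named by the same measure, the Pearson correlation of log2(CPM + 2) over the 6 libraries, among the 8551 genes tested. For *Acta1* they were *Vcan*, a matrix proteoglycan (r = 0.990), *Snap23*, a membrane fusion protein (0.985), *Tnnc1*, the slow and cardiac troponin C (0.984), *Tfdp2*, a partner of E2F factors (0.981), and *Sema3e*, a secreted semaphorin (0.981). Of these, *Sema3e* was called higher in cKO, with a log2 fold change of 1.16 (edgeR adjusted p = 0.0080). *Tnnc1* had 12.6, 6.52 and 12.7 CPM in the control and 30.9, 126 and 52.9 CPM in the cKO libraries. It followed the same order of cKO libraries as *Acta1*, with an edgeR adjusted p of 0.272. For *Actn3* they included *Mdp1*, a phosphatase (0.998), *Ufsp1*, a protease of the UFM1 pathway (0.990), 1600012H06Rik (0.988) and *Dpysl3*, a cytoskeleton-binding protein (0.987). *Dpysl3* was called higher in cKO (log2 fold change 0.67, edgeR adjusted p = 0.0033). *Acta1* and *Actn3* had r = 0.947 with each other, and *Acta1* and *Actb* had r = -0.824. With 6 libraries in 2 groups that differ, high values of r are reached by many genes, and they are given as a description.

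Genes that act on or with these proteins were taken as 8 lists with 116 genes in all, of which 114 were analysed and 89 passed the filter. By edgeR 0 of the 89 were called, with 12 (13.5%) at an unadjusted p under 0.05 beside 11.9% of all genes tested, and DESeq2 also called 0. Their median log2 fold change was 0.018, with 46 positive and 43 negative, beside 0.0023 for all genes tested. The groups did not overlap for 7 (7.87%) that were higher and 4 (4.49%) that were lower in cKO, beside 8.2% and 8.31% of all genes tested.

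The 3 tested partners of alpha-actinin at the Z-disc had the highest median of the 8 lists, at 0.65, all 3 positive. *Xirp1*, which encodes the actin-binding protein Xin, had 58, 37 and 49 counts in the control and 82, 80 and 64 counts in the cKO libraries. Its groups did not overlap, and its log2 fold change of 0.72 (SE 0.20) had an edgeR adjusted p of 0.056. It was called in 5 of 15 alternatives, whose adjusted p ran from 0.0045 without control 1 to 0.432 without cKO 2, with 0.351 in DESeq2. *Ttn*, the giant spring protein titin, had 79, 32 and 64 counts in the control and 54, 130 and 79 in the cKO libraries, with overlapping groups (log2 fold change 0.65, adjusted p = 0.744). The list median is the value of *Ttn*. *Neb*, named after its values were seen, had 60, 32 and 46 counts in the control and 38, 87 and 67 in the cKO libraries. Its groups also overlapped (log2 fold change 0.54, edgeR adjusted p = 0.691), and both genes were highest in cKO 2. Of the 12 listed partners *Myoz2* and *Myoz3*, Z-disc proteins of mature fibres, were at 0 in every library.

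The proteins that bind actin subunits and turn filaments over had a median log2 fold change of 0.093 over 17 genes, with 10 positive and 7 negative. *Pfn1*, profilin 1, which loads subunits onto growing filaments, was their most abundant member, with 2148, 2296 and 2316 counts in the control and 2012, 1269 and 1719 counts in the cKO libraries. Its CPM values were lower in every cKO library after TMM scaling but overlapped with total counts as the only scaling (log2 fold change -0.37, SE 0.16, edgeR adjusted p = 0.344). *Tmsb4x*, thymosin beta 4, which sequesters subunits, had a log2 fold change of -0.26 (adjusted p = 0.520).

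Nucleation and elongation factors had a median of -0.04 over 20 genes. The most abundant were *Arpc2* and *Arpc1b*, subunits of the Arp2/3 complex that starts branched filaments, with log2 fold changes of -0.10 and -0.37 (edgeR adjusted p = 0.858 and 0.198). *Fhod3*, the formin of the cardiac sarcomere, was at 0 in every library. Capping and severing proteins had a median of -0.03 over 10 genes and were led by the capping protein subunits *Capzb* and *Capza2*, with log2 fold changes of -0.01 and -0.08. Bundling and cross-linking proteins had a median of 0.05 over 13 genes and were led by *Tagln2* and *Cnn3*, a transgelin and a calponin, with log2 fold changes of -0.16 and 0.07.

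Partners of alpha-actinin at adhesions had a median of 0.0081 over 10 genes. *Itgb1*, the integrin beta 1 subunit, had 657 CPM in the control and 577 CPM in the cKO group, with a log2 fold change of -0.19 (edgeR adjusted p = 0.621), and *Zyx*, zyxin, had 0.14 (adjusted p = 0.739). Regulators of the SRF pathway had a median of 0.14 over 7 genes. *Rock2*, a kinase that promotes actomyosin contraction, and *Rhoa*, a small GTPase, were the most abundant, with log2 fold changes of -0.23 and -0.12 (adjusted p = 0.541 and 0.844). *Abra*, an actin-binding protein of striated muscle, was at 0 in every library. Actin-related proteins and enzymes that modify actin had a median of -0.05 over 9 genes and were led by *Actr1a* and *Actr10*, components of dynactin, with log2 fold changes of 0.08 and -0.12.

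**Figure D4:**
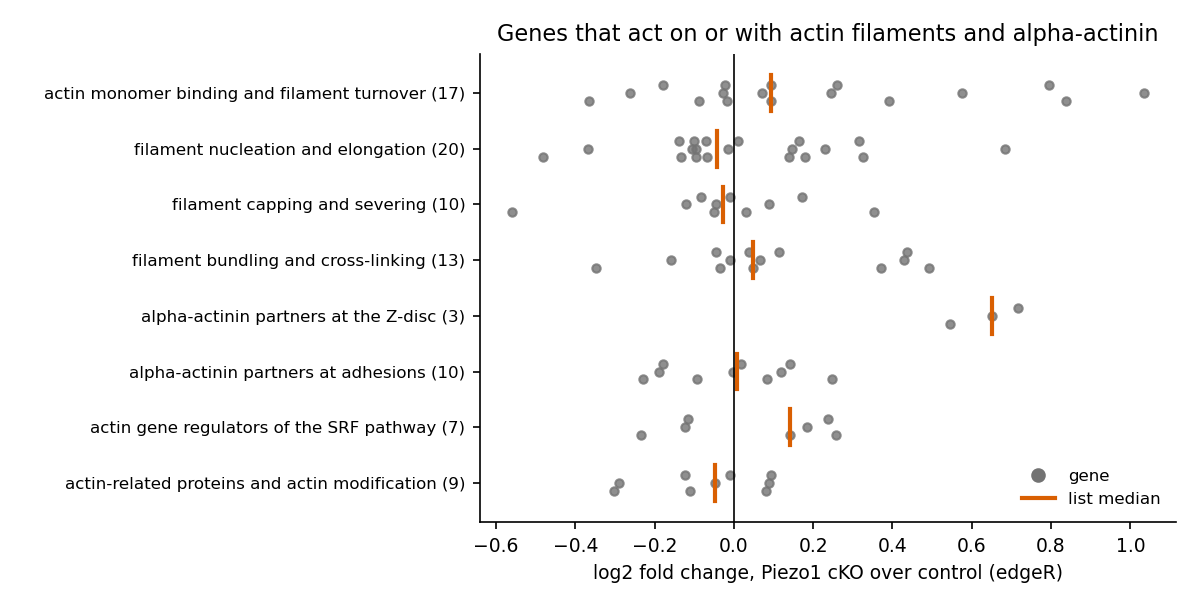
Log2 fold change of *Piezo1* cKO over control from edgeR (x axis) for the 89 tested genes of the 8 lists (y axis, with the number of genes tested), each gene a grey point and the list median an orange line. The medians of the lists lie close to 0 except that of the 3 Z-disc partners, at 0.65, and none of the 89 genes was called.

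Promoters are shown because the CArG box marks the actin genes among others. Promoter windows, from 250 bases before to 50 bases after the RefSeq start of a gene on GRCm38.p6, were given for 7 of the 10 members, not for *Actb*, *Actg2* and *Actn3*. A CArG box, which is CC followed by 6 bases that are each A or T and then GG, was found in 3 of the 7: *Acta1*, *Actc1* and *Actg1*. Of all 32851 windows 1.63% held one. The 100 bases before the *Acta1* start (chr8:123894776-123894875, minus strand, read 5′ to 3′) hold the box 73 to 64 bases before the start and the letters TATAAA near the end, both in capitals. The 30 bases around the box of *Actc1* (chr2:114052903-114052932, minus strand) and of *Actg1* (chr11:120348566-120348595, minus strand) follow, with the box in capitals. The *Actc1* stretch lies inside the GENCODE gene given above, which starts further upstream than the RefSeq entry. For *Acta1* the GENCODE gene starts further downstream than the RefSeq entry, so the box lies further from the GENCODE start.
Acta1: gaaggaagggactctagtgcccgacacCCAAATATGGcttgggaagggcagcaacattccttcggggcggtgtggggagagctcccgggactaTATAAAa
Actc1: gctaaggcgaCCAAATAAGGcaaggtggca
Actg1: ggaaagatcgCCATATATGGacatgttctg

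A CArG box with 1 base of the 6 replaced by C or G was found in *Acta1*, *Acta2* and *Actc1*, and in 8.50% of all windows, and no site can count as both forms. TATAAA on either strand was found in *Acta1* and *Actc1*, and in 13.6% of all windows. Relative to the RefSeq start it lay from -7 to -2 in *Acta1* and from 33 to 38, after the start, in *Actc1*. The E-box CANNTG, bound by *Myod1* and *Myog*, was found in all 7 on either strand, and in 72.3% of all windows, and the MEF2 site was found in 0 of the 7 and in 1.86% of all windows. The members with a CArG box thus include 2 genes that were higher in every cKO library (*Acta1* and *Actc1*) and 1 whose groups overlapped (*Actg1*), and no binding was measured here.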

How the data were processed

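Total RNA (500 pg per sample) from MuSCs cultured for 3 days was reverse transcribed with barcoded oligo-dT primers that carry unique molecular identifiers (UMIs), amplified by 12 PCR cycles and sequenced in pairs. The authors mapped reads with STAR 2.7.9a to GRCm38, assigned them with featureCounts 2.0.1 and deposited UMI counts from UMI-tools 1.1.1, 1 column per library; settings for strand and multiple hits are not given in the sources used here. The labels do not say that the libraries of a group came from separate mice, so p-values rest on variation between libraries, which need not be variation between mice. For the tests of single genes, the variance of a gene is also estimated with the help of other genes.

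The counts were tested with edgeR 4.0.16 (quasi-likelihood, robust, TMM, filterByExpr with a minimum count of 10), p-values adjusted by the Benjamini-Hochberg method over all genes tested, with DESeq2 1.42.0 and limma-voom 3.58.1 as alternatives. Shares and sums were compared by two-sided exact permutation tests (SciPy 1.17.1). Intervals of shares and pooled ratios are exact and cover counting error only. Promoters came from RefSeq (GRCm38.p6), transcripts from GENCODE M21 (GRCm38).

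The members, the 8 lists and the markers were chosen with earlier results of these data known. Named genes were the members, *Piezo1*, *Myog*, the genes called and the 2 most abundant in each list, the most abundant and the absent genes of each marker list, and the 5 genes most like *Acta1* and *Actn3*. Some genes that this rule names are not reported here.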

Additional observations from a re-analysis of the deposited data

How the results depend on the processing

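*Actn3* kept its direction and an adjusted p under 0.05 in all 15 alternatives, with log2 fold changes from 1.03 to 1.43 and adjusted p from 2.73e-08 to 0.0116. None of the 8 tested members changed direction in any alternative. The number of members called was 2 with DESeq2, 3 with limma-voom, 2 with replicate number added as a block, 3 with edgeR without robust dispersions (chosen after seeing the data) and 1 to 3 with 1 library left out. Among all genes, DESeq2 called 27 of 4007, limma-voom 72 of 8551, the block 46 of 8551 and edgeR without robust dispersions 83 of 8551. *Acta1* had log2 fold changes from 1.55 to 2.31 and was called in 6 of its 15 alternatives, with adjusted p of 3.23e-04 in limma-voom, 7.09e-06 without robust dispersions and 0.0040 with the block. *Actc1* was called in 2 of 13, limma-voom (0.0026) and edgeR without robust dispersions (7.63e-04).

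The number of genes called among all tested, 67, was 27 with DESeq2, 129 with no filter and 124 at an adjusted p under 0.1, and ran from 6 without cKO 2 to 155 without cKO 1 (29 without cKO 3, 105 without control 1 and 130 without control 3). With the replicate block it was 46. The replicate numbers were not taken as pairs: for libraries that share a number, the correlation of the deviations from the group mean was -0.143, -0.202 and 0.012. In the 8 lists, alternatives chosen after seeing the data called 1 gene with DESeq2 size factors in edgeR (*Xirp1*), 2 with total counts only and 2 with at least 10 counts in every library (*Xirp1* and *Marcks*), 2 with no filter (*Xirp1* and *Ldb3*), 2 at an adjusted p under 0.1 and 0 to 3 with 1 library left out (*Xirp1* without control 1, *Marcks* without control 2, *Cap2*, *Pls3* and *Cnn2* without control 3, *Neb* without cKO 1), all higher in cKO, and 0 with the block; these genes other than *Xirp1* were named after their values were seen.

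The difference of the sarcomeric actin share ranged from 3.52 to 9.92 percentage points, and that of the sarcomeric alpha-actinin share from 7.51 to 11.3. With 3 libraries a group no share or sum could pass 0.05 in an exact permutation test, and *Actg2* was at or under the floor of 3 counts in every library, as was *Actn2* in all but cKO 2. Causes were not tested.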
